A study of Homo sapiens with 12 samples.

Results

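The arrays described here are the 4 replicate 3 arrays of the series, set against the 8 arrays of replicates 1 and 2. They were chosen by the replicate number in their titles, 4 of 12 arrays in all, and no measured value entered the choice. Each of the 4 groups gave 1 replicate 3 array and 2 others, and every comparison was made within a group. The replicate 3 arrays are taken in the order ING2_WT etoposide, ING2_WT DMSO, ING2_6K etoposide, ING2_6K DMSO throughout, and the first of them is also set against the other 3.

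All 12 samples were HT1080 cells, an established human fibrosarcoma line, stably transduced to express ING2. ING2_WT cells carried the unaltered protein and ING2_6K cells a form with basic residues replaced, made to bind nuclear phosphoinositides poorly. Cells received 100 uM etoposide, which traps topoisomerase II on broken DNA, or the solvent DMSO, for 16 h per the labels, while the study's text gives another duration. A legend of the study calls replicates biological, whereas the labels do not say whether they were separate cultures or clones. The p-values below measure only the spread between these arrays. In RNA from whole cultures, more cells in a state and more RNA per cell cannot be told apart.

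Replicates of a cultured line usually differ little, and genes of 1 pathway often vary together among them. In fibroblast-like cells such as HT1080 one such unit is the secreted matrix. Fibrillar collagens, fibronectin and proteoglycans are made in the endoplasmic reticulum and laid down around the cell. Interferon-stimulated genes form another such unit: interferon signalling brings a complex of transcription factors to a short promoter element and switches on antiviral proteins and antigen presentation. Ribosomal, mitochondrial and spliceosomal proteins are encoded by short, highly expressed genes whose transcripts usually vary together.

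Before the results, 2 arrays need a remark. On the array labelled ING2_6K etoposide replicate 3, ING2 itself read 217, against 12350 and 10510 on replicates 1 and 2 of the same group. The 9 arrays of the other 3 groups read 140.9 to 645.6, so replicates 1 and 2 labelled ING2_6K etoposide were the only arrays with a high ING2 signal. The array labelled ING2_6K etoposide replicate 3 correlated best with ING2_WT DMSO replicate 3 (Pearson's r = 0.977 over genes) and less with its own replicates 1 and 2 (0.944 and 0.934). The ING2_6K groups differed from the ING2_WT groups in the direction of a damage response gene: CDKN1A, the p53-induced inhibitor of cyclin-dependent kinases, read 3109 to 6574 on the arrays labelled ING2_6K etoposide and 9643 to 16700 on those labelled ING2_6K DMSO. In ING2_WT cells CDKN1A was high with etoposide, at 12660 to 19440, against 2969 to 3938 with DMSO. Whether the labels or the cells differ here was not tested. Departures were taken within groups, so they do not depend on which treatment a whole group had, whereas an array in the wrong group would alter them. The ING2_WT etoposide replicate 3 array stood apart from all others, and the main counts are given with and without both arrays.

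The correlation of all arrays shows the separation. Replicates 1 and 2 of a group correlated at 0.970 to 0.982 over 11422 genes. Replicate 3 correlated with them at 0.782 and 0.781 in ING2_WT etoposide, 0.890 and 0.874 in ING2_WT DMSO, 0.944 and 0.934 in ING2_6K etoposide, and 0.891 and 0.882 in ING2_6K DMSO. No replicate 3 array came as close to its own group as replicates 1 and 2 came to each other. General measures of the arrays overlapped between the sets: the share of values under 0 was 12.4% to 26.9% on replicate 3 arrays and 0.434% to 26.2% on the others (exact permutation within groups, two-sided, p = 0.222, adjusted over 5 measures 0.556), and the 75th percentile was 80.8 to 82.2 against 75.5 to 87.7 (exact permutation p = 0.79, adjusted 0.988). The share of tested genes at the floor of 16 was 0.762% to 5.78% on replicate 3 arrays and 0.429% to 2.65% on the others (exact permutation p = 0.0864, adjusted 0.432). The smallest p this design allows is 0.0123 before adjustment, so a measure that reached it alone could not pass a threshold of 0.05 after adjustment. Defining markers of mesenchymal cells were measured for 11 of 11 genes, with summed signals of 57860 to 108700 on replicate 3 arrays and 58760 to 103400 on the others. Of 9 epithelial markers 4 reached the detection minimum, with sums of 638.6 to 1756 against 692.6 to 1203, and of 8 blood cell markers 1 did.

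**Figure D1:**
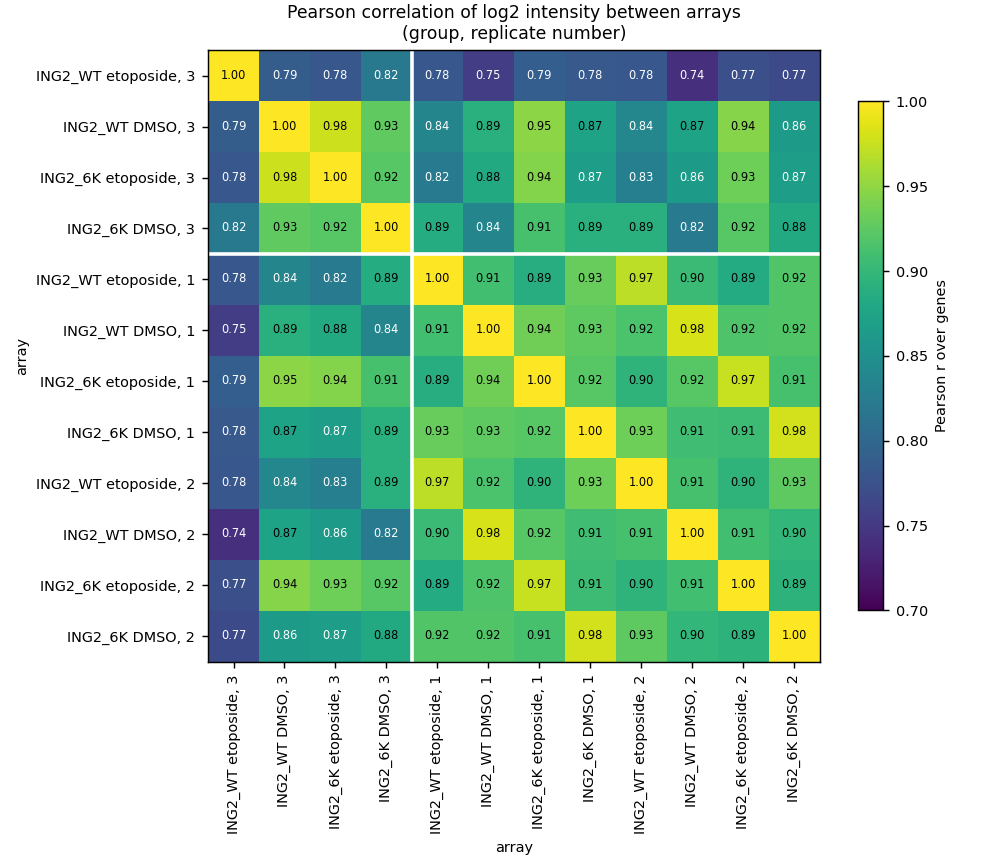
Pearson correlation of log2 intensity between the 12 arrays over 11422 genes, with the 4 replicate 3 arrays first on both axes (white lines) and each cell labelled with its r. The row of ING2_WT etoposide replicate 3 lies between 0.742 and 0.821, and the arrays labelled ING2_WT DMSO replicate 3 and ING2_6K etoposide replicate 3 reach 0.977 with each other.

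The first question was which genes departed on replicate 3 in all groups. A departure is the log2 intensity of replicate 3 minus the mean log2 intensity of replicates 1 and 2 in the same group, and the shared term is its average over the 4 groups. In limma, with the 4 group means in the model, 4473 of 11422 genes (39.2%) had a shared term with an adjusted p under 0.05. Of these 1825 were higher on replicate 3 (16.0%) and 2648 lower (23.2%). Replicate 3 lay above both other arrays in all 4 groups for 1268 of the genes called (11.1% of those tested) and below both for 2092 (18.3%). Departures correlated between groups at 0.279 to 0.623 over genes, whereas the differences between replicates 1 and 2 correlated at -0.078 to 0.091. No 2 groups share an array, so these 4 departures rest on separate arrays. More than 1 log2 unit separated replicate 3 from the mean of the others for 41.2%, 31.8%, 13.1% and 30.6% of genes in the 4 groups, against 3.49% to 7.07% between replicates 1 and 2. Without the ING2_WT DMSO replicate 3 array 1205 genes were called higher. With cyclic loess scaling 2140 were higher and 2049 lower, so the majority of lower calls depends on the scaling.

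Secreted matrix was higher on replicate 3 arrays. Of 26 genes of collagens and matrix, 20 were called higher and none lower, with a median shared term of 1.36, against -0.10 over all genes. COL1A2, a chain of type I collagen, read 189, 174, 254 and 163 on the 4 replicate 3 arrays, against a lowest, median and highest of -15.1, 32.2 and 74.3 on the others. The sets did not overlap, and the shared term was 2.63 ± 0.30 (SE; limma adjusted p = 0.00115). FN1, fibronectin, read 718, 808, 838 and 587, against 70.8 to 407.1 (shared term 2.16 ± 0.31). COL18A1, the source of endostatin, read 717 to 1039 on replicate 3 and 66.1 to 415.5 on the others (2.46 ± 0.30). COL6A1 departed by 2.65, 3.28, 0.95 and 2.77 in the 4 groups (shared 2.41 ± 0.34). The array labelled ING2_6K etoposide replicate 3 moved least. Replicates 1 and 2 of its group read 1134 and 1234, against 124.6 to 439.4 on those of the other groups. The reason for the smaller departure was not tested. COL1A1, the partner chain of COL1A2, and LAMB1 and LAMC1, laminin chains of the basement membrane, were called higher as well, with shared terms of 2.05, 1.63 and 1.39. The members not called, COL7A1, COL5A2, TIMP1, COL6A2, COL4A2 and MMP14, had terms of 0.53 to 0.98. COL6A2 read 14.2 on ING2_WT etoposide replicate 3 and departed by 2.96, 0.24 and 2.40 on the other 3 arrays, and without the first array its term was 1.87 and called.

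The genes with the largest shared terms lay mostly outside that list. NOTCH3, a receptor for ligands on neighbouring cells, had the largest, at 3.04 ± 0.39. It read 1287, 684.5, 862.8 and 718.3 on replicate 3 arrays, against a lowest, median and highest of 28.8, 93.0 and 432.6 on the others. CEMIP, which takes part in the breakdown of hyaluronan, read 4948 to 10340 against 197.3 to 2563 (2.99 ± 0.47). PXDN, a peroxidase that cross-links type IV collagen, had departures of 2.17, 2.62, 3.58 and 2.78 (2.79 ± 0.26). VCAN, the proteoglycan versican, read 1489, 7162, 6718 and 3325 on replicate 3 and 207.2 to 3096 on the others, so the sets overlapped although each replicate 3 array exceeded its own group. The collagen-binding integrin subunits ITGA11 and ITGA10 had terms of 2.63 ± 0.45 and 2.44 ± 0.43. C1S, a complement protease of the classical pathway, had a term of 2.80 ± 0.34. It departed further on ING2_WT etoposide replicate 3, by 4.36, than on the mean of the other 3 arrays (difference of 2.09, limma adjusted p = 0.00548). PLXDC2, a transmembrane protein with a plexin domain, had 2.54 ± 0.33, and FER1L4, transcribed from a pseudogene, 2.78 ± 0.49.

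**Figure D2:**
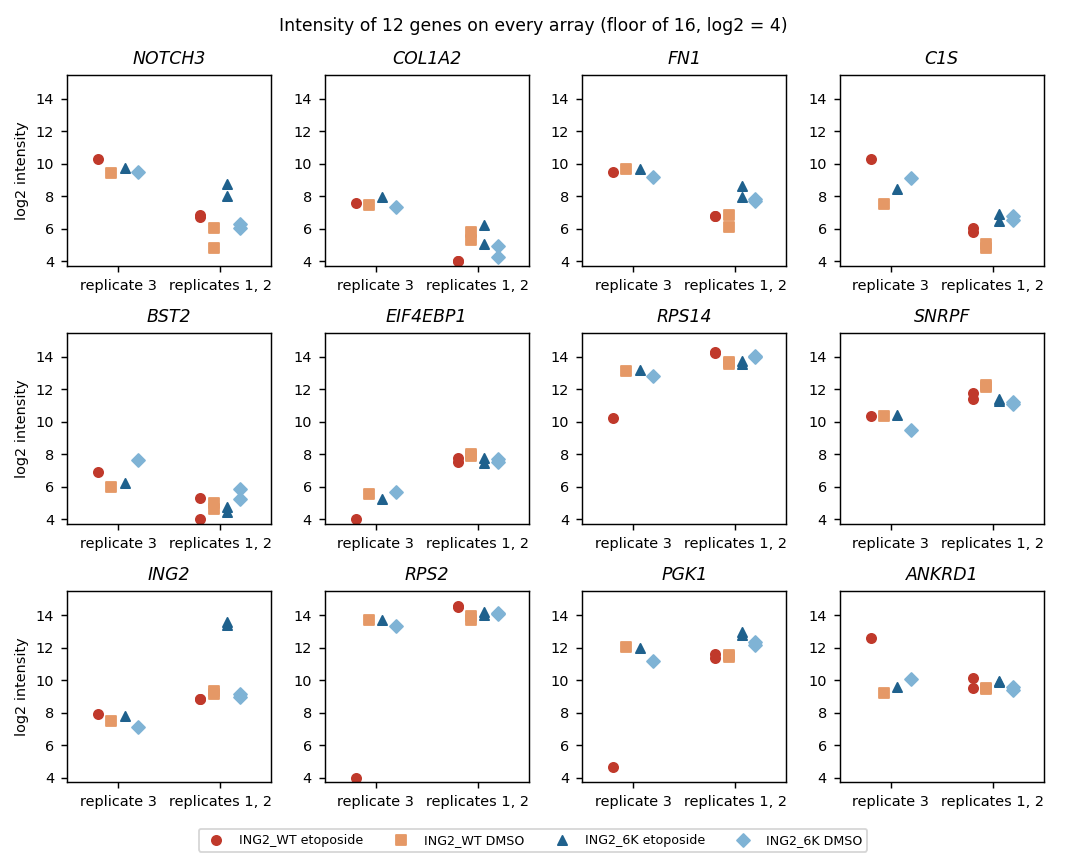
Log2 intensity of 12 genes, with replicate 3 on the left and replicates 1 and 2 on the right of each panel, 1 point per array, coloured and shaped by group. NOTCH3, COL1A2, FN1, C1S and BST2 lie higher on replicate 3 within each group, EIF4EBP1, RPS14, SNRPF and ING2 lower, and RPS2, PGK1 and ANKRD1 depart most on ING2_WT etoposide, where RPS2 lies at the floor of 4 (log2 of 16).

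Interferon-stimulated genes were higher together. Of 30 measured, 17 were called higher and none lower, against 16.0% and 23.2% of all genes. The median was 0.90 and the range -0.65 to 2.13. OAS2, which makes the activator of RNase L, read 1666, 356.5, 427.4 and 1624 on replicate 3 arrays, against 70.2 to 364.2 on the others. Its departures were 2.88, 2.00, 1.33 and 2.30, and the shared term 2.13 ± 0.29 (limma adjusted p = 0.00145). BST2, a membrane protein that tethers budding viruses, read 119, 63.8, 76.5 and 205, against a median of 29.5 and a highest reading of 59.5 on the others (1.79 ± 0.27), so the sets did not overlap. IFIT2, an RNA-binding antiviral protein, had departures of 1.12, 1.04, 0.96 and 1.53. Among the signalling proteins STAT2 and IRF9 were called higher, at 1.11 and 0.57, but IRF9 only with ING2_WT DMSO replicate 3 included (0.48 and not called without it). IRF1 and ISG15 stood near 0, at 0.00 and 0.02, and the immunoproteasome subunits PSMB8 and PSMB9 at -0.63 and -0.65, none of these called. PSMB8 read 153 on ING2_WT etoposide replicate 3, against 607.8 and 774.2 on its replicates, and 519.4 to 630.3 on the other replicate 3 arrays. With limma array weights 8 of the 30 were called higher.

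The promoters of 2 of these genes are shown because they carry the letters of the interferon-stimulated response element, and because both genes were among the 4 of the list with the lowest adjusted p. The capitals mark the match to GAAANNGAAA, searched on both strands, so TTTCNNTTTC is the same element on the opposite strand. The windows are 60 bases from RefSeq promoters (250 bases before to 50 after the gene start, build GRCh38.p14), 5′ to 3′ on the gene's own strand. BST2 lies at chr19:17405726-17405785 on the minus strand with the match starting at -130, and TAP1 at chr6:32853804-32853863 on the minus strand with the match starting at -134.
BST2: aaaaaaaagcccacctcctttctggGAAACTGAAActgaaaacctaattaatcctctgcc
TAP1: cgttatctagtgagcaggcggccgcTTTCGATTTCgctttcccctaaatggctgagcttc
The element's letters stood in 9 of 13 promoters of interferon-stimulated genes called higher and in 6 of 11 of those not called, against 3.65% of all 27305 promoters. Over all genes called higher the share was 3.24%, and over those called lower 2.12%. None of 20 promoters of collagens and matrix held a match.

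Antigen presentation by HLA class I followed. Of 18 genes, 10 were called higher and 1 lower, against 16.0% and 23.2% of all genes, with a median of 0.80. TAP1, which pumps peptides into the endoplasmic reticulum, read 6167, 5507, 5773 and 6844 on replicate 3, against 1075 to 3110 on the others, with no overlap (1.41 ± 0.20). HLA-B had a shared term of 2.02. Probes of such similar genes can read more than 1 of them, and HLA-H, listed as a pseudogene relative, had 1.54 ± 0.29. The exception was PSMB10, at -0.65. CCL2, a chemokine that draws monocytes, had a term of 2.40 ± 0.39. Of 21 inflammatory genes 6 were called higher and none lower, against the same shares of all genes, with a median of 0.12. Without ING2_WT DMSO replicate 3 the list had 2 higher calls and 1 lower. CXCL8 and IL1B, at 0.17 and -0.51, were not called.

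Genes of the secretory and lipid pathways had higher calls in several lists. Of 19 genes for chaperones of the endoplasmic reticulum, 9 were called higher, among them HSPA5, the main sensor chaperone, at 1.22, CANX at 1.32 and PDIA4 at 1.13. SEC61B, a subunit of the translocation channel, was lower, at -0.91. In the lysosome and autophagy list 12 of 27 were higher: NPC1, which exports cholesterol, had 1.63 and GLB1, the beta-galactosidase, 1.40 ± 0.23. MAP1LC3B and BECN1, which act in autophagy, were the 2 called lower, at -1.17 and -1.05. Fatty acid synthesis had 9 of 13 higher, led by its regulator SREBF1, which read 858, 658, 837 and 543 against 107.3 to 469.9 (1.73 ± 0.30), and ACACA, the first enzyme, at 1.15 ± 0.22. That count was 4 without ING2_WT DMSO replicate 3 and 5 without ING2_WT DMSO replicate 1. Cholesterol synthesis was split: SQLE, an epoxidase, was among 8 of 24 higher, at 0.91, whereas IDI1, MVK and ACAT2 were the 3 lower, at -1.25, -1.16 and -0.77. Its count of higher calls was 5 without ING2_WT DMSO replicate 3. In the hypoxia list 5 of 24 were higher, VEGFA with 1.63 ± 0.35 among them, a share near the 16.0% of all genes called higher. The list had 1 higher call without ING2_WT DMSO replicate 3, 3 without any 1 of ING2_WT DMSO replicates 1 and 2 and ING2_WT etoposide replicate 1, 8 without ING2_6K etoposide replicate 3 and 10 without ING2_6K DMSO replicate 3.

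**Figure D3:**
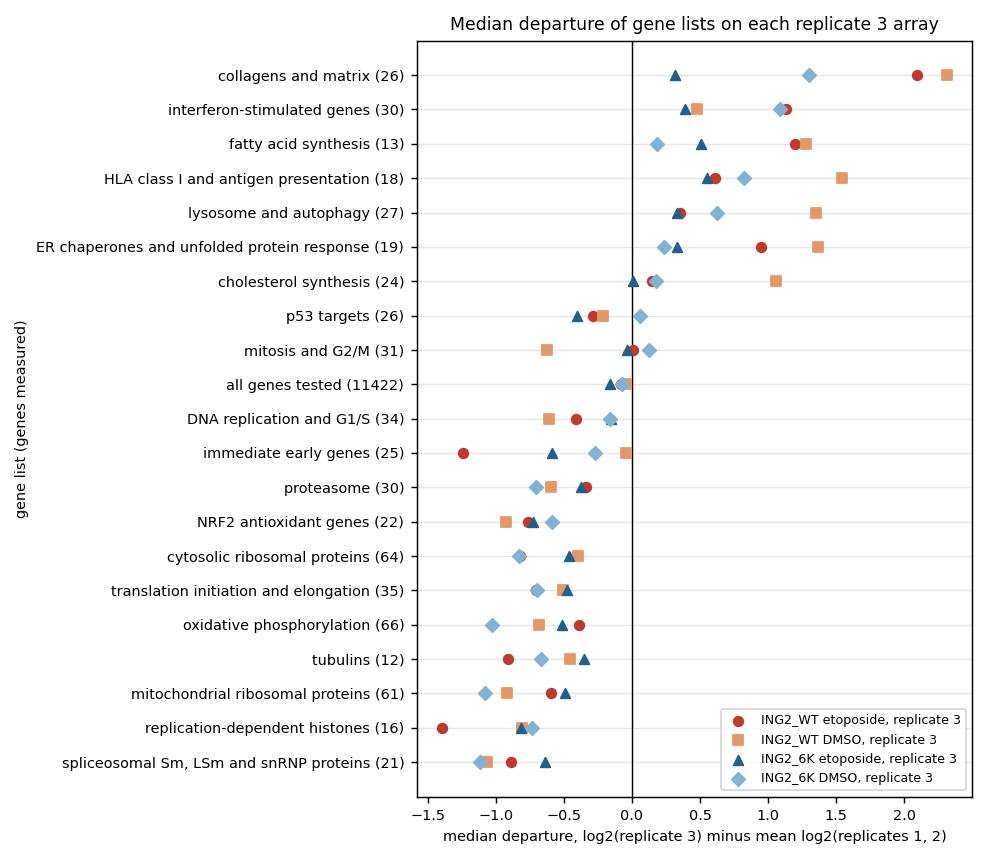
Median departure, in log2 units, of 20 gene lists and of all genes tested on each replicate 3 array, 1 point per array, with the number of genes measured in parentheses. All 4 arrays lie above 0 for collagens and matrix and for interferon-stimulated genes, and all 4 below -0.6 for the spliceosomal Sm, LSm and snRNP proteins.

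Genes for the basic machinery of the cell were lower on replicate 3 arrays. Spliceosomal Sm, LSm and snRNP proteins, the core of the splicing particles, had 18 of 21 genes lower and 1 higher, with a median of -1.05. SNRPF read 1312, 1303, 1387 and 724 on replicate 3 and 2184 to 4930 on the others, with no overlap, and departed by -1.25, -1.86, -0.91 and -1.65 (shared -1.42 ± 0.17; limma adjusted p = 0.00124). LSM1, of the ring that starts mRNA decay, had -1.05 ± 0.14. SNRNP70, a protein of the U1 particle, was the one called higher, at 0.45, and was near 0 (0.02) with the mean of its probes. Mitochondrial ribosomal proteins had 50 of 61 lower and MRPS25 higher (a call lost without ING2_6K DMSO replicate 3), with a median of -0.80. Oxidative phosphorylation had 48 of 66 lower and COX6A1 higher, with a median of -0.67. NDUFA3, a subunit of complex I, read 1211, 755, 734 and 730, against 1389 to 2980 (-1.23 ± 0.14). Translation initiation and elongation had 21 of 35 lower, the proteasome 15 of 30 and tubulins 8 of 12, none of these with a higher call. Ribosome biogenesis had 9 of 34 lower and none higher, a share near the 23.2% of all genes called lower. PSMB6, a catalytic subunit of the proteasome, had -0.92 ± 0.12 (SE), FBL, the methyltransferase of ribosomal RNA, -1.10 ± 0.15 and NOP16, a nucleolar assembly factor, -1.12 ± 0.17.

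Cytosolic ribosomal proteins were lower for 47 of 64 genes, with a median of -0.64 and no higher call. RPS14 read 1202, 8869, 9324 and 7437 on replicate 3, against 11980 to 19970 on the others, so the sets did not overlap, but the first array lay far below the other 3. Its call (-1.54 ± 0.48) was lost after cyclic loess and without ING2_6K DMSO replicate 3. These probes are among the brightest, and the count depends on scaling: 30 were lower after quantile normalization, 18 after cyclic loess and 22 with array weights, with the median at -0.34 to -0.72 over the alternatives run. Over all genes, departures tended to be more negative at a higher level, taken here from replicates 1 and 2 of the other 3 groups. Genes whose log2 intensity there was 12 or more had medians of -0.69, -0.23, -0.44 and -0.67 on the 4 arrays. For those with an intensity under 64 the medians were 0.26, 0.15, 0.08 and 0.29. The part of level in the lower calls was not tested. For the proteasome, oxidative phosphorylation, translation, histone and NRF2 lists cyclic loess gave 9, 31, 10, 6 and 5 lower calls.

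The named genes with the lowest shared terms among those called were of mixed function. EIF4EBP1, the repressor of cap-dependent translation that mTOR switches off, read -4.12, 47.1, 38.1 and 51.2 on replicate 3, against 178.8 to 264.2, and so had no overlap (-2.60 ± 0.24; limma adjusted p = 0.000887). EFCAB11 and C9orf85, whose roles are little known, had -2.54 ± 0.21 and -2.54 ± 0.27, and POLR2J, a subunit of RNA polymerase II, -2.37 ± 0.33. Some replicate 3 readings of these dim genes lay under 16, the value to which low readings were set, so their departures there are bounds. FTL, the ferritin light chain, MRPL23, MRPL12 and the histone gene H4C3 also had terms of -2.42 to -2.61, with departures of -5.43 to -7.09 on ING2_WT etoposide replicate 3 and -0.66 to -2.61 on the others. The readings of MRPL23 and MRPL12 on that array, 1.58 and 4.43, were under 16, and the calls of FTL and MRPL23 were lost without either ING2_WT etoposide replicate 1 or replicate 2.

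ING2, the transduced gene, belongs to the same set of lowest terms, at -2.59 ± 0.60. It read 237, 178, 217 and 141 on replicate 3, against 453 to 12350 on the others, with no overlap. The departures were -0.95, -1.77, -5.71 and -1.91, the lowest on the array labelled ING2_6K etoposide. Without that array the shared term was -1.54, and without ING2_WT etoposide replicate 3 as well it was -1.84, both called. A second ING2 probe departed by -0.91, -1.54, -7.63 and -1.80. Among 18 genes of the SIN3-HDAC complex and ING family, 5 were lower and 1 higher (8 lower without ING2_WT etoposide replicate 3, and 3 without ING2_WT DMSO or ING2_6K DMSO replicate 3): SAP18, BRMS1L, BRMS1 and ING3, besides ING2, had -1.09, -0.94, -0.68 and -0.40, and ING4 0.78. The call of ING3 was lost without any 1 of 10 arrays, ING2_WT etoposide replicate 3 and ING2_6K DMSO replicate 2 being the exceptions, that of BRMS1L without ING2_WT DMSO or ING2_6K DMSO replicate 3, and that of ING4 without ING2_WT DMSO replicate 3. HDAC1, HDAC2 and SIN3A had -0.09, -0.26 and 0.54 and were not called. The share of lower calls in this list was near the 23.2% of all genes called lower. UBE2N, an E2 enzyme of ubiquitin chains in DNA damage signalling, was lower, at -1.15 ± 0.17, with 585, 671, 568 and 443 on replicate 3 against 845.2 to 1608. DKC1, CIP2A and AURKB had terms of -0.27, -0.27 and -0.39, none called.

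Histone, NRF2 antioxidant and immediate early genes had more lower than higher calls. Over all genes 23.2% were called lower and 16.0% higher. Replication-dependent histones, which are made in S phase, had 11 of 16 lower, with a median of -0.84. NRF2 antioxidant genes had 10 of 22 lower, and NQO1 read 612, 982, 841 and 628, against 1467 to 3607, with no overlap (-1.52 ± 0.16). SRXN1, which repairs peroxiredoxins, had -1.48 ± 0.21. Immediate early genes had 8 of 25 lower and 2 higher: the growth-factor responsive FOSL1 and EGR1 had -1.53 and -1.73, and CCN1, a matrix-associated target of YAP, 1.42. The lower count was 4 without either ING2_WT etoposide replicate 1 or replicate 2 and 5 without ING2_6K DMSO replicate 1.

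Several pathways had calls in both directions. Over all genes 16.0% were called higher and 23.2% lower, and the shares of the amino acid stress and glycolysis lists were near these. In the actin and adhesion list 7 of 29 were higher and 11 lower: the integrin subunit ITGAV had 1.19 ± 0.21, whereas TPM4, a tropomyosin, had -1.67 ± 0.29. Genes of the ATF4 and amino acid stress list had 5 of 26 higher, among them the transporters SLC3A2 and SLC7A1, at 1.18 and 1.13, and 5 lower, among them the enzymes MTHFD2 and PSPH, at -1.19 and -1.35. In glycolysis the glucose transporter SLC2A3 was among 5 of 22 higher, at 1.43 ± 0.25, and GAPDH among 4 lower, at -1.02 ± 0.29. The actin list gave 3 higher and 12 lower calls without ING2_WT DMSO replicate 3, and the amino acid stress list 4 and 2. The glycolysis list gave 2 higher and 7 lower without that array and 8 higher and 1 lower after cyclic loess, and the call of GAPDH was lost after cyclic loess and without both doubted arrays.

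Cell cycle and damage genes were mixed, although they are the ones etoposide moves. Over all genes 23.2% were called lower and 16.0% higher. DNA replication and G1/S genes had 10 of 34 lower and none higher, but 3 lower and 1 higher without ING2_WT DMSO replicate 3. RFC2, a subunit of the clamp loader, had the lowest term among them, at -1.96 ± 0.26. Mitosis and G2/M genes had 5 of 31 lower and 3 higher, shares below those of all genes. Without the same array 3 were lower and 4 higher. TOP2A, the target of etoposide, was higher by 0.79, 0.56, 0.56 and 0.79 (shared 0.67 ± 0.14), and CENPF, a kinetochore protein, by 1.35 ± 0.18, whereas CKS2 and UBE2C were lower, at -1.15 and -1.03. Of 26 p53 targets 7 were lower and 3 higher, shares near those of all genes. CDKN1A departed by -0.60, -0.34, -0.97 and -0.72 (-0.66 ± 0.14), a call lost after quantile normalization or cyclic loess. SAT1, which breaks down polyamines, and TNFRSF10B, a death receptor, were higher, at 1.05 and 1.21. MDM2, at -0.62, was not called. Of the 7 lower calls for p53 targets, the fit without ING2_WT DMSO replicate 3 gave 4 and cyclic loess 2.

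The counts were also taken without both arrays that raised doubts. Without ING2_WT etoposide replicate 3 and ING2_6K etoposide replicate 3, 5521 genes were called, 2492 higher and 3029 lower, and 3720 of them were among the 4473. Higher calls then numbered 22 of 26 for collagens and matrix, 14 of 30 for interferon-stimulated genes, 13 of 18 for HLA class I, 17 of 27 for lysosome and autophagy, 6 of 13 for fatty acid synthesis and 12 of 24 for cholesterol synthesis. Lower calls numbered 19 of 21 for the spliceosomal list, 57 of 61 for mitochondrial ribosomal proteins, 49 of 66 for oxidative phosphorylation, 38 of 64 for cytosolic ribosomal proteins and 7 of 16 for histones.

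Gene span, from start to end in the annotation, differed between the higher and the lower calls. It had a median of 39.1 kb for genes called higher and 17.5 kb for those called lower, against 29.4 kb over all genes tested. Of genes under 5 kb 36.5% were lower and 9.49% higher, and of genes at 100 kb or more 12.04% were lower and 22.2% higher. A span was known for 94.8% of the higher and 86.7% of the lower genes. A second probe, available for 455 of the genes called higher and 744 of those called lower, departed the same way on average over the 4 groups for 380 and 709 of them. By more than 1 log2 unit it did so for 136 and 332. Over all 2729 genes with at least 2 measured probes, the signs of the 2 average departures agreed for 78.6%.

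The second question was which genes departed on ING2_WT etoposide replicate 3 beyond the other 3 replicate 3 arrays. This array has its own term in the fit. The SE and p of the difference thus come from the spread of the other arrays and do not measure its own error. In limma that difference passed an adjusted p of 0.05 for 2367 genes (20.7%), 787 higher (6.89%) and 1580 lower (13.8%). Genes were called limited to this array where, in addition, the replicate 3 term of the other 3 arrays was not called and each of their departures was under 1 in size. There were 955 of these (8.36%): 311 higher (2.72%) and 644 lower (5.64%), and 152 of the lower ones read 16 or less on the array. The count of higher differences was 340 without ING2_WT etoposide replicate 1, 475 without replicate 2 of that group and 497 without ING2_WT DMSO replicate 1. The limited higher count was 154 and 210 without the first and second of these and 547 without ING2_WT DMSO replicate 3. The split turned with the filter on dim probes: 1458 were higher and 675 lower with no filter, 695 and 649 with 64 on at least 1 array, and 307 and 273 with 64 on all 12.

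Low readings on this array included probes that were bright on the replicates of its group. RPS2, EEF1G, EIF5A, TNFRSF12A and ATG4B, named below, had no second kept probe, and probes of other genes disagreed on this array. It had 528 genes more than 3 log2 units lower, against 12, 11 and 3 on the other replicate 3 arrays. Of 2351 genes whose log2 intensity was 10 or more on replicates 1 and 2 of the group, 40 read under 64 on replicate 3, against 0 of 2355, 0 of 2481 and 0 of 2423 in the other 3 groups. RPS2, a protein of the small ribosomal subunit, read 15.8, against 23050 and 24360 on replicates 1 and 2 and 13560, 13440 and 10170 on the other replicate 3 arrays. Since 15.8 is under the floor of 16, its departure of -10.53 is a bound. RPLP0, of the ribosomal stalk, read 84.7 on this array, against 23360 and 27720 on its replicates (difference from the other 3 departures -7.91 ± 0.33; limma adjusted p = 3.1e-06). EEF1G, a subunit of the elongation factor that loads tRNA, read 47.7 against 13730 and 14570 (-7.85 ± 0.32). The translation factor EIF5A, the proteasome ATPase PSMC4, the receptor TNFRSF12A, the autophagy protease ATG4B and APH1A, of gamma-secretase, had differences of -5.22, -5.83, -6.00, -5.95 and -5.28. EIF5A also lay below both replicates of its group on the other replicate 3 arrays, by -0.15, -0.43 and -0.48. Of 64 cytosolic ribosomal proteins, 14 had a called difference on this array, all lower, against 13.8% lower over all genes. The 4 limited to it (RPS2, RPLP0, RPS9 and RPS27A) were a share near the 5.64% of all genes. The call of RPS27A, with a difference of -1.08, was lost after quantile normalization (-0.25) and without any 1 of replicates 1 and 2 except ING2_6K etoposide replicate 2.

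**Figure D4:**
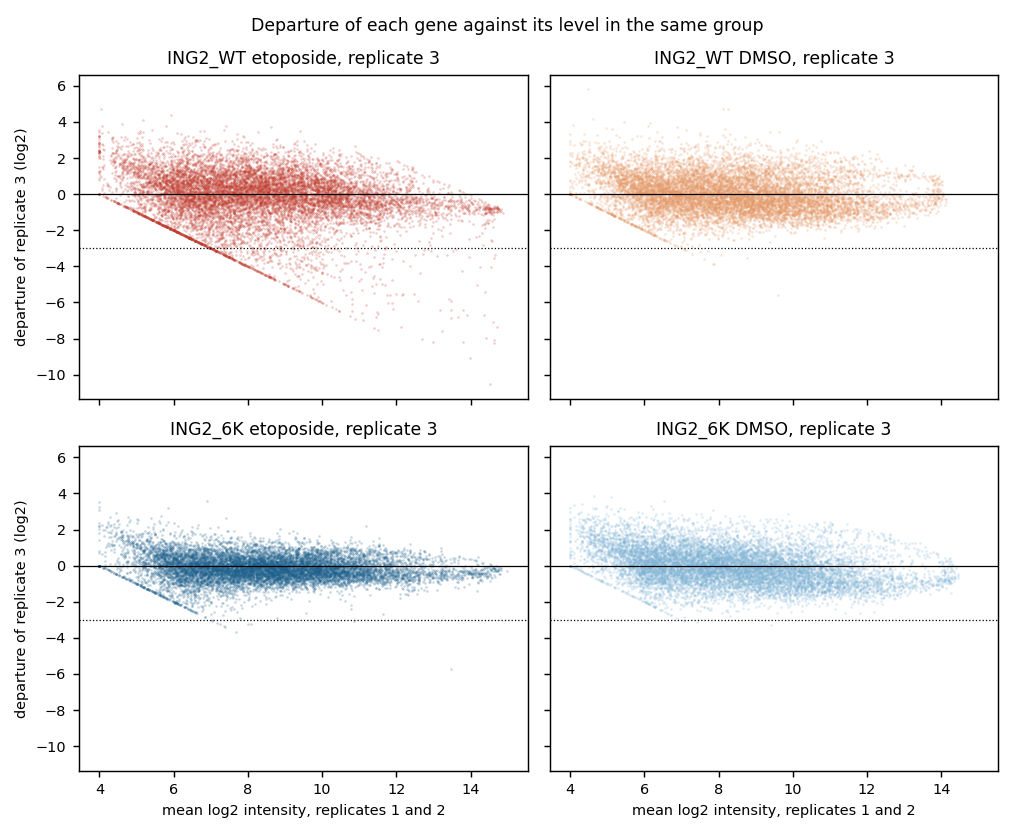
Departure of each of 11422 genes on the 4 replicate 3 arrays (log2) against its mean log2 intensity on replicates 1 and 2 of the same group, with a dotted line at -3. The ING2_WT etoposide array has 528 genes below that line and the other arrays 3 to 12. The slanted edge is the floor of 16, so genes with a level near the floor cannot reach the line.

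Within glycolysis the low readings were uneven. Of 22 genes, 4 had a called lower difference and 1 a higher one, against 13.8% and 6.89% of all genes. The median departure of the list on this array was 0.57. ALDOA, an aldolase, read 25.9 against 5917 and 7454, PGK1, a kinase of the pathway, 24.8 against 3080 and 2588, and PGAM1, a mutase, 31.4 against 3287 and 2460. GAPDH read 3794 against 19060 and 19470 (difference -1.77 ± 0.33), while PKM was limited and higher, by 2.00, though with the mean of its probes the difference was -1.15. Neither ALDOA nor PGK1 met the rule for limited genes, since 1 of their other departures exceeded 1 in size. In other pathways TUBA1C, an alpha tubulin, EBP, of cholesterol synthesis, and IL11, a cytokine, had differences of -6.21, -5.25 and -4.78. EBP was opposite to the other arrays: it departed by -4.43 here and by 1.35, 0.47 and 0.65 there. Of 26 p53 targets 4 were limited and lower, against 5.64% of all genes. These were BAX, an apoptosis effector, POLH, a translesion polymerase, BTG2 and TP53I3, with differences of -3.41, -2.55, -1.53 and -1.39. BAX also lay below both replicates of its group on the other replicate 3 arrays, by -0.21, -0.42 and -0.73. Their term narrowly missed the threshold (-0.456, limma adjusted p = 0.0523). The calls of BTG2 and TP53I3 were lost without ING2_WT etoposide replicate 1. MCM5, of the replicative helicase, NFKBIA, the inhibitor of NF-kB, JUNB, an immediate early factor, and the chaperone genes HSPA1B and STIP1 were limited and lower by the same rule, at -3.16, -2.83, -2.72, -2.67 and -3.02. STIP1 also lay below both replicates of its group on the other replicate 3 arrays, by -0.17, -0.56 and -0.28.

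Different probes of a gene disagreed on this array. Over 2729 genes with at least 2 measured probes, the departures of the brightest and the second probe correlated at 0.358 on ING2_WT etoposide replicate 3, against 0.778, 0.605 and 0.718 on the other replicate 3 arrays. Of 165 first probes lower by more than 3, the second was lower by less than 1, or higher, for 42. The brightest ACTB probe, for beta-actin, departed by -0.44 and 1 of the other 2 by 0.16, while the last departed by -8.09. PGK1 had -6.83 on 1 probe and -0.27 on the other, and ALDOA -8.00 and -1.72. FTL (-7.09 and -7.94), RPLP0 (-8.23 and -5.73) and all 3 probes of PSMC4 (-6.13, -6.15 and -6.90) were low on each. CDKN1A had -0.60 on its brightest probe and -3.83 on the second, against -0.34, -0.97 and -0.72 and -1.07, -0.61 and -0.75 on the other arrays.

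**Figure D5:**
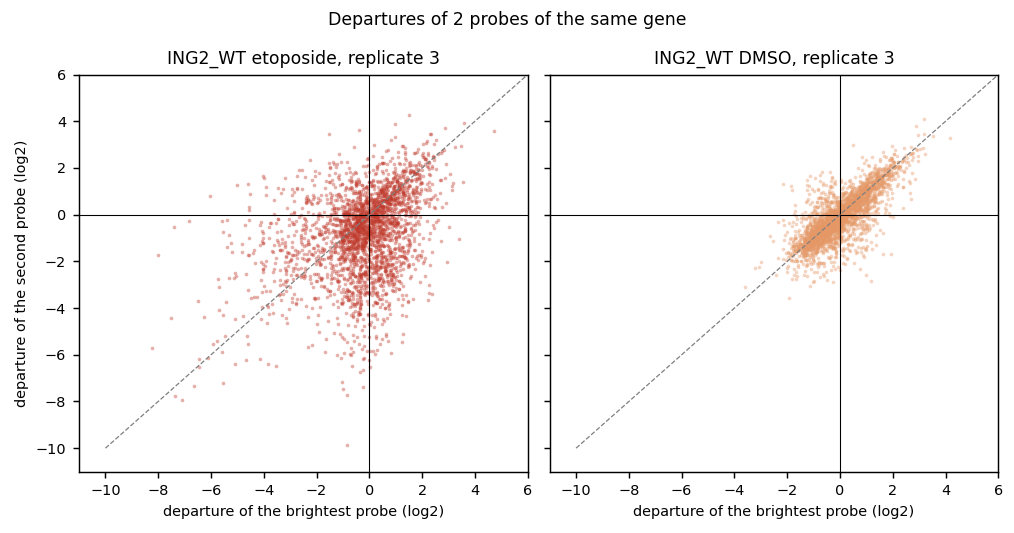
Departure of the second probe against that of the brightest probe (log2) for 2729 genes with at least 2 probes, on ING2_WT etoposide replicate 3 (left) and ING2_WT DMSO replicate 3 (right), with a dashed line of equal departures. Points follow the line on the right (r = 0.778) and scatter on the left (r = 0.358), with many genes low on 1 probe and near 0 on the other.

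Of the 644 limited lower genes, 152 had a second probe, and 92 of these were also lower by more than 1, with a median of -1.60. Of the 311 limited higher genes, 84 had one, and 15 were also higher by more than 1, with a median of -0.12. Named examples of the higher calls were SNRNP48, a protein of the minor spliceosome (3.29 ± 0.63), the nuclear protein ATN1 (2.96 ± 0.44), ANKRD1, a target of YAP (2.78 ± 0.42), the actin-regulated coactivator MRTFB (2.74 ± 0.45), CHAF1A, of the histone-loading complex CAF-1 (2.66 ± 0.39), and the mitotic cyclin CCNB1 (2.61 ± 0.55). ATN1 read 3480 on the array, against 408.7 and 462.1 on replicates 1 and 2 and 317.8, 309 and 433.6 on the other replicate 3 arrays. ANKRD1 read 6099, against 1111 and 736.2 and, on the other replicate 3 arrays, 583.3, 747.8 and 1079. CCNB1 read 106 against 15.2 and 31.9, still below the 561.2 to 1101 of the arrays labelled ING2_WT DMSO and ING2_6K etoposide. DEPDC1B and CHAF1A read 78.7 and 88.7 on the array, against readings under 16 on replicates 1 and 2, so their differences are bounds. With a floor of 64 the calls of DEPDC1B, CHAF1A and CCNB1 were lost.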

How the data were processed

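RNA from 12 HT1080 samples was hybridised to Illumina bead arrays. The authors deposited normalized intensity values per probe, made in Genespring per the study's methods. The exact scaling is not given in the sources used here. Values were used as deposited without rescaling, set to at least 16 and turned to log2. Another 24 columns of per-sample values were not used.

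Probes at 64 or more on at least 3 arrays were kept (14776), and each of 11422 genes was taken from its probe with the highest mean. Of these 10278 had a current symbol in RefSeq. limma 3.58.1 in R 4.3.3 was fitted with 4 group means and a replicate 3 term, and again with a further term for ING2_WT etoposide replicate 3. P-values were adjusted over all genes (Benjamini-Hochberg, threshold 0.05). The scripts were tested on simulated data. Other scalings, floors, filters, probe rules and fits, a replicate block and the omission of single arrays were tried.

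Genes were named from the largest terms in each direction and, per list, the smallest adjusted p, plus ING2 and selected targets. Further list members were named after their values were seen. The members and lists were chosen with earlier results of these data known.

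Some genes are not reported here.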

Additional observations from a re-analysis of the deposited data

Results flagged for a closer look

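Of 60 values per replicate 3 array compared over the 4 arrays, 4 had an array that stood apart by more than 0.829 of the whole range; chance gives about 1 in 20. The number of genes lower by more than 3 log2 units was 528 on ING2_WT etoposide replicate 3, against 3 to 12 on the other 3. The median departure of replication-dependent histones was -1.39 on the same array, against -0.81, -0.81 and -0.73. On ING2_WT DMSO replicate 3 the median departure of cholesterol synthesis was 1.06, against 0.15, 0.01 and 0.18, and that of the mesenchymal and fibrosarcoma markers was 1.31, against 0.39, 0.25 and 0.21. The departure on ING2_WT etoposide replicate 3 also differed from the mean of the other 3 by a test of the difference itself for 2367 genes (limma). No explanation of these values was tested.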

How the results depend on the processing

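The count of 4473 genes with a shared term stayed within 1.5 times under the scalings, floors, filters, probe rule and omissions run, except that it was 2263 at an adjusted p under 0.01 and 6994 with an own replicate 3 term for each group. Leaving out 1 array gave 3205 to 4836. The count of 2367 genes on ING2_WT etoposide replicate 3 was 3767 with array weights, 1167 at an adjusted p under 0.01 and 4081 with own terms, and 1611 to 3143 without 1 array. Its share of higher calls, 33.2%, was 56.9% with no filter, 52.5% with 64 on all 12 arrays, 43.8% with a floor of 64 and 46.1% with own terms, and 13.97% at an adjusted p under 0.01. The 955 limited genes were 2133 with no filter, 580 with 64 on all arrays, 601 at an adjusted p under 0.01 and 697 to 1375 without 1 array. For the genes named in the text, values without 1 array kept their direction and side of the threshold in 1892 cases, were no longer called in 39 and newly called in 20. Under the other settings they did so in 2203, were no longer called in 70 and newly called in 28. On that array 3 differences changed sign: PGK1 was 0.30 with 64 on all 12 arrays, where another probe stands for the gene, CDKN1A was -1.47 and PKM was -1.15 with the mean of all probes.

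With a replicate block the counts were 4012 and 1989. The labels do not say that a number marks a shared culture or day, so the numbers were not taken as pairs. Same-numbered arrays of the ING2_6K groups deviated from group means with r = -0.044 for replicate 2, against 0.103 to 0.623 for the other pairs. Such deviations are tied within a group, so those of replicates 1 and 2 carry part of the replicate 3 departure and cannot settle pairing. Differences between replicates 1 and 2 correlated at -0.078 to 0.091, and replicate 3 departures at 0.279 to 0.623.

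Readings under 16 have no order, and the number of arrays limits the precision: the median SE was 0.231 for the shared term and 0.412 for the ING2_WT etoposide replicate 3 difference.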

Other observations

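Small noncoding RNAs, which guide the modification of ribosomal and spliceosomal RNA, showed the widest spread between replicate 3 arrays among the groups not described above. The median departure of 14 of them was -1.41 on ING2_WT etoposide replicate 3, 0.45 on ING2_WT DMSO, 0.13 on ING2_6K etoposide and 1.44 on ING2_6K DMSO. SNORA64, a box H/ACA RNA, read 27.7, against 126.6 and 218.6 on replicates 1 and 2 of ING2_WT etoposide, and SNORD13 read 237, against 695.2 and 741.6. Other members were higher on the same array: SNORA25 read 2000, against 346.8 and 336.9, and SNORA32 724, against 224.8 and 202.7, with called shared terms of 1.87 and 1.43. In ING2_6K DMSO SNORA64 and SNORD13 were higher, at 287 and 480 on replicate 3, against 99.4 and 84.9 for SNORA64 and 119 and 86.7 for SNORD13 on replicates 1 and 2. Of the 14, 3 had a higher call and none a lower one, and 8 were higher without both doubted arrays.

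Of 19 ubiquitous reference genes, often used as constant, 6 were called lower on replicate 3 and 2 higher, a share near the 39.2% of all genes called, with shared terms from -2.30 to 1.46. Heat shock chaperones had 5 of 21 lower and none higher, a share near the 23.2% of all genes called lower, with DNAJB1, a partner of HSP70, at -1.502. Splicing factors outside the spliceosomal core were mixed, with 8 of 34 lower and 3 higher, SF3B1 at 1.01 among the higher ones. The share of lower calls was near the 23.2% of all genes. That list had 13 lower without ING2_WT etoposide replicate 3 or without both doubted arrays, 5 lower without ING2_WT DMSO replicate 1 or 2 or ING2_6K DMSO replicate 3, and 4 lower and 5 higher after cyclic loess.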
